A study of Mus musculus with 2 samples.

Results

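The proteasome genes described here are the 50 protein-coding genes whose symbols begin with Psm followed by a letter from a to g and a digit, out of 55536 Ensembl genes listed and 22015 nuclear protein-coding genes. They were measured by total RNA sequencing of the gastrocnemius, the large calf muscle, in 2 male B6CASTF1/J mice, the first-generation cross of C57BL/6 and CAST, at 36 days of age. Stranded libraries depleted of ribosomal RNA were made from 300 ng of RNA to which ERCC spike-ins had been added. The 2 mice, labelled replicate 2 and replicate 1, make up a single untreated group, and there is no contrast between groups. Each mouse has its own biosample, although both carry the same donor entry, and the deposited files do not separate the parental alleles. Whole muscle was used, so RNA from every cell type of the tissue contributed. No difference was tested here, since 1 animal on each side allows no p-value. The spread between the animals is given as the SD of 2 values.

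The proteasome is the large protease that degrades proteins tagged with ubiquitin. Its 20S core is a barrel of alpha and beta rings with the proteolytic sites on beta subunits inside, and the 19S regulatory particle binds the tagged protein, removes the ubiquitin, unfolds the chain and feeds it in. Immunoproteasome subunits, which interferon induces, can replace the constitutive active site subunits, and other activators can take the place of the 19S particle. In skeletal muscle the ubiquitin-proteasome system is a main route of myofibrillar protein breakdown and is known for its part in atrophy.

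The members fall into 7 alpha ring genes, 4 beta ring genes without an active site, 3 constitutive and 3 immunoproteasome active site genes, 6 ATPases and 11 other subunits of the 19S particle. There are also 3 assembly chaperones of the 19S particle, 4 of the 20S core, 5 genes of the PA28 and PA200 activators, the PI31 gene Psmf1, and Psma8 and Psmb11, which are subunits of germ cell and thymus proteasomes. The rule also took in Psmc3ip, a meiotic recombination factor that is not a proteasome subunit. The 4 named Psm pseudogenes were no members, and none had more than 3 reads in either library.

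Promoter sequence was available for 42 members (RefSeq, GRCm38.p6, 250 bases before to 50 bases after the start). Those of 5 genes are shown as examples, picked for the place of these genes in the levels below: Psmb10, the most abundant immunoproteasome subunit, Psmb6 and Psmb5, constitutive active site subunits, and Psma3 and Psma2, the most and the least abundant subunits of the alpha ring. Whether levels depend on these sequences was not tested. Each is the stretch just upstream of the annotated exons, 5′ to 3′ on the strand of the gene. Capitals mark a match to TGACNNNGC, the core of the antioxidant response element bound by the NRF1 and NRF2 factors, or to CCAAT, the NF-Y box; the Psmb10 stretch holds neither.
Psmb10, chr8:105938445-105938594, minus strand: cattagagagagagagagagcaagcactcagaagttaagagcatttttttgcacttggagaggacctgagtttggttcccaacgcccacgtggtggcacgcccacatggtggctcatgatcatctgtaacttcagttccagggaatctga
Psmb6, chr11:70525207-70525356, plus strand: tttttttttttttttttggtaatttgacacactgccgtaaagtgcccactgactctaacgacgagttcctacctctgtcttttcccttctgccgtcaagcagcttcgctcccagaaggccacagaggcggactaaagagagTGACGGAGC
Psmb5, chr14:54618023-54618172, minus strand: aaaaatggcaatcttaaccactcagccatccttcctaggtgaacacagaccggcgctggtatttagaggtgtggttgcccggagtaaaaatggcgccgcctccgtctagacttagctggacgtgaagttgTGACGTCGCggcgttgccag
Psma3, chr12:70974471-70974620, plus strand: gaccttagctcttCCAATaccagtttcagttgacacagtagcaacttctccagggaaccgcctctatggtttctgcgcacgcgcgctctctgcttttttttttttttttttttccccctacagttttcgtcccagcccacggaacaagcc
Psma2, chr13:14613166-14613239, plus strand: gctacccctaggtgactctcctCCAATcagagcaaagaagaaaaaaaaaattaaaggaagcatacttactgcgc

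The Psmb6 match began 9 bases before the RefSeq start and the Psmb5 match 47 bases before it. Over windows of 300 bases and both strands, TGACNNNGC was present in 6 of the 42 members (14.3%) and in 13.99% of 27025 symbols with a promoter. Those members were Psmb5, Psmb6, Psmc6, Psmd12, Psmd9 and Psme4. The wider TGANNNNGC, which includes every TGACNNNGC, was present in 24 members (57.1%) and in 45.1% of all symbols. Without the 50 bases after the start TGACNNNGC was present in 5 members (11.9%) and in 11.5% of all symbols, and TGANNNNGC in 17 members (40.5%) and in 38.7%. CCAAT was present in 15 members (35.7%) and in 41.1% of all symbols, and in the same number of members and 37.5% of all symbols in the shorter window. GAAANNGAA, part of the interferon-stimulated response element, was present in 7 members (16.7%) and in 9.76% of all symbols, and TTCNNNGAA, the gamma-activated site, in 3 members (7.14%) and in 9.55%. In the shorter window GAAANNGAA was present in 3 members (7.14%) and in 8.18% of all symbols, so that the share of members was no longer the higher one. TTCNNNGAA was then present in 2 members (4.76%) and in 8.13% of all symbols. Psmb8 was the single immunoproteasome gene with TTCNNNGAA. A match describes the letters in the window and says nothing of binding.

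Proteasome genes were abundant in the muscle as a group. The gene tables held 38754338 expected counts, which are estimated reads, in replicate 2 and 36952277 in replicate 1. The members took 83370 of these reads in replicate 2, or 0.215% (Wilson 95% interval 0.214 to 0.217), and 80742 in replicate 1, or 0.219% (0.217 to 0.220). Such intervals cover counting error only. In TPM, the level scaled by transcript length and library total, the members summed to 1852 in replicate 2 and 1818 in replicate 1. The median member stood at a mean of 35.0 TPM, against 6.99 TPM for the 10028 nuclear protein-coding genes of at least 1 TPM in both animals. Their 75th percentile of 17.1 TPM was exceeded by 35 of the 50 members. A read was counted in both animals for 48 members, and 44 had at least 1 TPM in both.

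**Figure D1:**
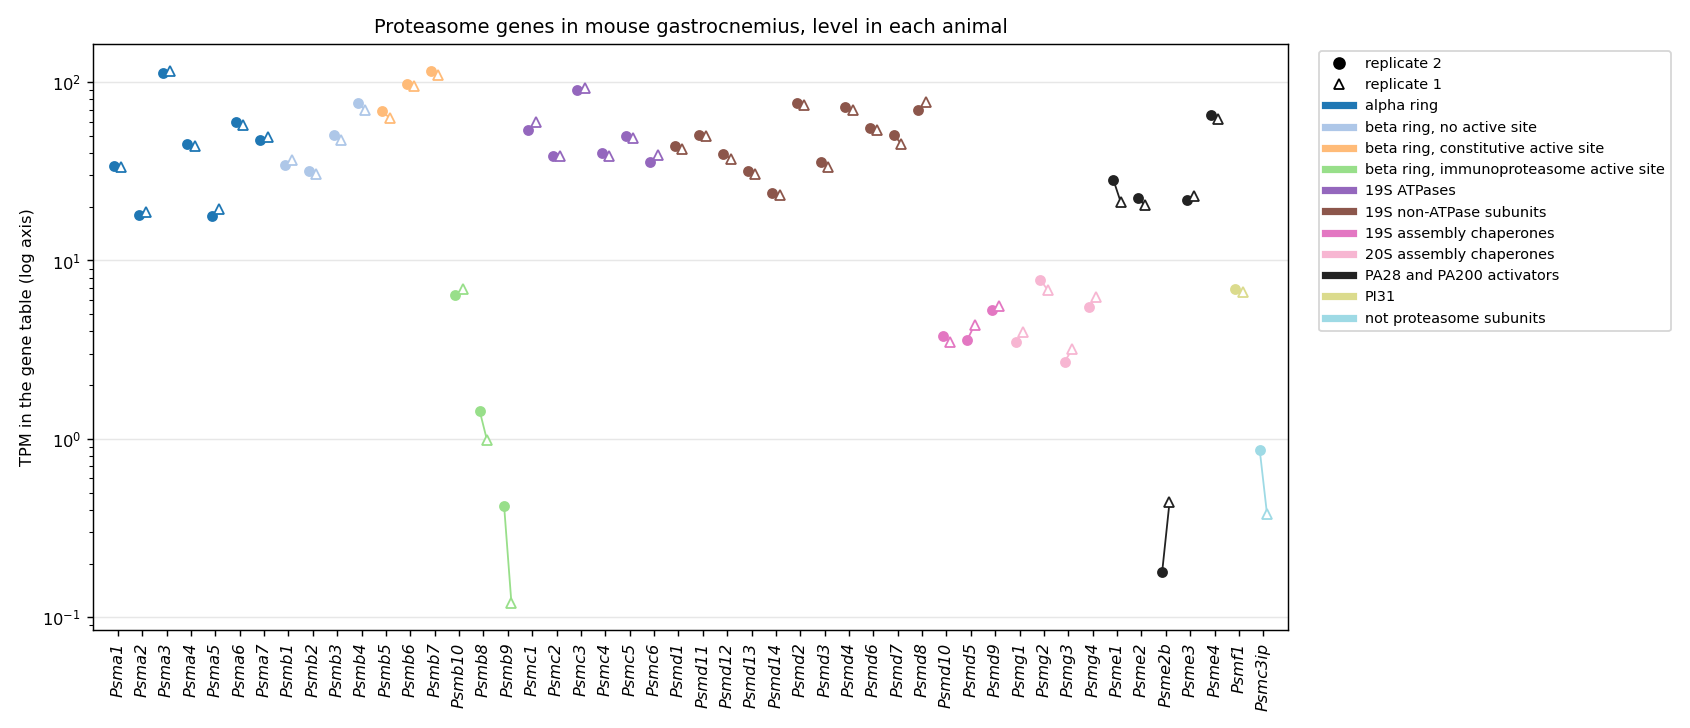
TPM of the gene tables (vertical log axis) for each of the 48 members with a read, ordered by class; filled circles are replicate 2, open triangles replicate 1, and lines join the animals. The constitutive subunits lie between 18.3 and 114 TPM in the mean of the animals, the assembly chaperones between 2.94 and 7.32 TPM, and Psma8 and Psmb11, listed at 0, are not drawn.

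By the members of the rule, the constitutive core and its regulatory particle stood at nearly equal levels. The median of the 17 genes of the 19S particle was 49.6 TPM in replicate 2 and 45.0 in replicate 1, and that of the 14 constitutive genes of the 20S core was 48.8 TPM in replicate 2 and 48.3 in replicate 1. The 19S over 20S ratio was therefore 1.01 in replicate 2 and 0.932 in replicate 1, a mean of 0.973 ± 0.0588 (SD, n = 2), which is within the spread between the animals of 1. Summed levels were 855 ± 2.91 TPM for these 17 genes and 799 ± 14.1 TPM for the core. Adrm1 and Sem1, 19S subunits that carry other symbols, are not among the 17 genes. Adrm1 had 38.7 TPM in replicate 2 and 33.7 in replicate 1, and Sem1 had 22.4 and 24.7 TPM. Both lay below the 19S median in each animal. Counting them would put the 19S median at the level of Psmd1, 43.8 TPM in replicate 2 and 42.3 in replicate 1. That is below the core median in both animals, so the near equality holds for the 17 genes only. Of the 31 constitutive subunits, 26 lay within 2-fold of their median of 48.5 TPM. In whole tissue a lower level can come from fewer cells of a type or from less RNA per cell, and these cannot be told apart.

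The alpha rings form the outer ends of the barrel and gate the entry channel. Their 7 genes had a median of 44.3 ± 0.898 TPM (SD, n = 2) and spanned 6.25-fold. Psma3 was the most abundant, with 113 TPM in replicate 2 and 116 in replicate 1. Psma2 was the least abundant, with 18.0 TPM in replicate 2 and 18.6 in replicate 1, and Psma5 was close to it with 17.7 and 19.4 TPM. Psma2 and Psma5 do not differ beyond the spread of Psma5. The other 4 alpha genes, Psma1, Psma4, Psma6 and Psma7, ranged in the mean from 33.6 TPM for Psma1 to 58.6 TPM for Psma6. Over all 31 constitutive subunits Psma3 and Psmb7 shared the top, Psmb7 being higher in replicate 2 at 115 TPM and Psma3 in replicate 1. The level of Psma3 depended on how reads were assigned to transcripts, as described with the second transcript table.

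Among the 4 beta ring genes without an active site, Psmb4 was highest at 76.6 TPM in replicate 2 and 69.7 in replicate 1. Psmb2 was lowest at 31.6 TPM in replicate 2 and 30.6 in replicate 1. These subunits, numbered beta 3, 4, 6 and 7 in the ring, shape the chamber. Their median of 42.1 ± 0.343 TPM (SD, n = 2) lay close to that of the alpha ring.

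The constitutive active site genes were the highest class, with a median of 96.3 ± 2.51 TPM (SD, n = 2), or 1.98 ± 0.0365 times the median of the whole core. Psmb7 encodes the trypsin-like subunit and had 115 TPM in replicate 2 and 109 in replicate 1. Psmb6, the caspase-like subunit, had 98.1 TPM in replicate 2 and 94.6 in replicate 1. Psmb5, the chymotrypsin-like subunit that most proteasome inhibitor drugs bind, had 68.6 TPM in replicate 2 and 63.0 in replicate 1. The order Psmb7, Psmb6, Psmb5 was the same in both animals, with no overlap between genes.

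Immunoproteasome transcripts were scarce. Each interferon-induced subunit takes the place of 1 constitutive subunit, so its level is given as a percent of the pair. Psmb9 had 0.42 TPM in replicate 2 and 0.12 in replicate 1, on 12 and 4 reads, and made up 0.426% and 0.127% of its pair with Psmb6. Psmb10 had 6.37 TPM in replicate 2 and 6.96 in replicate 1, on 131 and 129 reads, and made up 5.24% and 5.99% of its pair with Psmb7. Psmb8 had 1.43 TPM in replicate 2 and 0.98 in replicate 1, on 45 and 31 reads, and made up 2.04% and 1.53% of its pair with Psmb5. In both animals the order was Psmb10, Psmb8, Psmb9, and no immunoproteasome gene came near its constitutive partner. Together the 3 genes reached 8.22 TPM in replicate 2 and 8.06 in replicate 1, against 282 and 267 TPM for the 3 constitutive genes, or 2.83% and 2.93% of the 6.

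**Figure D2:**
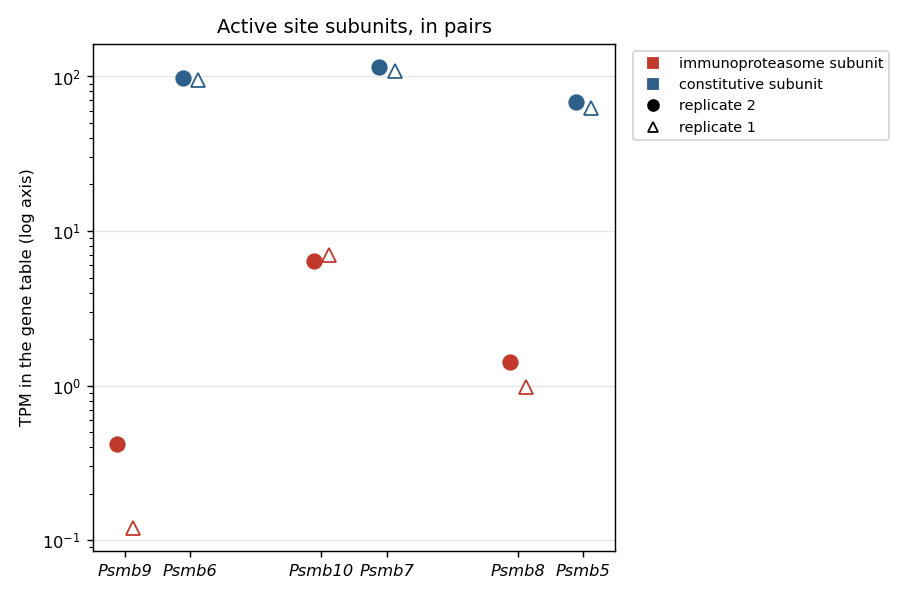
TPM of the gene tables (vertical log axis) for the 3 pairs of active site subunits, with the immunoproteasome subunit (red) left of the constitutive subunit it replaces (blue); filled circles are replicate 2 and open triangles replicate 1. Psmb10 is the highest immunoproteasome subunit in each animal at 6.37 and 6.96 TPM, and every constitutive subunit is above 60 TPM.

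Most of the TPM of Psmb10 was not assigned to its coding transcript. The first transcript table, which splits each gene into annotated transcripts, placed 2.00 TPM of Psmb10 in replicate 2 and 1.52 TPM in replicate 1 on Psmb10-201, its protein-coding transcript. That was 31.4% of the gene in replicate 2 and 21.8% in replicate 1. The rest was assigned to retained-intron and processed transcripts, led by Psmb10-203 with 43.5% in replicate 2 and 37.5% in replicate 1. These are shares of TPM, which is scaled by length. Psmb10-201 has 1311 bases and Psmb10-203 has 426, so the coding share of reads can be larger. The split rests on 131 reads in replicate 2 and 129 in replicate 1. Counted over protein-coding transcripts alone, Psmb10 made up 1.71% of its pair in replicate 2 and 1.38% in replicate 1. With the same restriction Psmb8 made up 0.896% and 0.647% of its pair, and Psmb9 0.370% and 0.0963%. The second transcript table gave 1.96% and 1.66% for Psmb10, 1.74% and 1.48% for Psmb8, and 0.541% and 0.321% for Psmb9. Restricted in this way, the mean share of Psmb10 fell to 1.54% or 1.81%, by table, against 5.62 ± 0.530% (SD, n = 2) over all its transcripts.

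Genes of interferon signalling and class I presentation, the setting in which the immunoproteasome works, were low to moderate. Of the 12 listed, 9 had at least 1 TPM in both animals, and the list summed to 98.3 TPM in replicate 2 and 102 in replicate 1. B2m, the light chain of class I molecules, was highest with 30.7 TPM in replicate 2 and 34.4 in replicate 1. Nlrc5, the class I transactivator, was lowest with 0.23 TPM in replicate 2 and 0.10 in replicate 1. Irf1, a transcription factor downstream of interferon, had the largest ratio between the animals, with 3.00 TPM in replicate 2 and 1.72 in replicate 1, but its credibility intervals overlapped. The 12 leukocyte markers summed to 42.6 TPM in replicate 2 and 53.6 in replicate 1. Of the 7 with a mean count of at least 50, 1 was higher and 6 lower in replicate 2. Lyz2 was highest at 19.1 TPM in replicate 2 and 20.95 in replicate 1, and the macrophage receptor gene Csf1r had the largest ratio, with 4.30 and 8.48 TPM. The T cell gene Cd3e and the killer cell gene Nkg7 were at 0 in both. The part of leukocytes in the immunoproteasome level was not tested.

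Psma8, the germ cell alpha subunit, and Psmb11, the thymic beta subunit, had no read in either gene table. At this depth a count of 0 allows, by counting error alone, up to 3 reads. That is 0.0996 TPM in replicate 2 and 0.0999 in replicate 1 for Psma8, and 0.0410 and 0.0411 TPM for Psmb11. The deposited upper credibility bounds were higher, at 0.624 TPM in replicate 2 and 0.629 in replicate 1 for Psma8, and 0.205 and 0.206 TPM for Psmb11. The germ cell genes Prm1 and Tnp1 and the thymic epithelial factor Foxn1 were likewise at 0 in both animals. The other listed markers of these cells, Dazl, Ddx4, Sycp3 and Prss16, did not exceed 0.11 TPM, whereas Ccl25 had 6.71 TPM in replicate 2 and 5.90 in replicate 1. The second transcript table did list reads for these genes. It gave Psmb11 0.0638 TPM in replicate 2 and 0.0729 in replicate 1, on 6.82 and 7.28 estimated reads, which is above the limit of 3 reads. It gave Psma8 0 TPM in replicate 2 and 0.161 in replicate 1, the latter on 1 estimated read and above the TPM limit set by 3 reads in the gene table.

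The 6 ATPases form the ring of the 19S particle that unfolds the substrate. They had a median of 44.3 ± 0.817 TPM (SD, n = 2). Psmc3 was highest with 90.3 TPM in replicate 2 and 92.5 in replicate 1. Psmc6 was lowest in the mean, with 35.4 TPM in replicate 2 and 39.1 in replicate 1. In replicate 1 Psmc2 and Psmc4 stood below it, at 38.4 and 38.5 TPM. Psmc1 stood at 54.2 TPM in replicate 2 and 59.5 in replicate 1, so that the order Psmc3, Psmc1, Psmc5 held in both animals. Below these, Psmc2 and Psmc4 differed by less than the spread of Psmc4, with means of 38.5 and 39.3 TPM.

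The 11 other subunits of the 19S particle scaffold it and hold its ubiquitin receptors and deubiquitinase. Their median was 47.7 ± 3.79 TPM (SD, n = 2). Psmd2, a large scaffold subunit of the base that binds ubiquitin-like domains, was highest in the mean of the gene tables, with 76.5 TPM in replicate 2 and 74.3 in replicate 1. By the second transcript table Psmd2 had 89.3 and 93.3 TPM, below Psmd8 with 97.5 and 119 and Psmd11 with 98.0 and 98.6. Psmd14, the deubiquitinase that cuts ubiquitin off the substrate, was lowest with 23.8 TPM in replicate 2 and 23.4 in replicate 1. Its partner Psmd7 was higher, with 50.4 TPM in replicate 2 and 45.0 in replicate 1. The ubiquitin receptor Psmd4 had 72.1 TPM in replicate 2 and 69.9 in replicate 1. Psmd8, a lid subunit, had 69.8 TPM in replicate 2 and 77.8 in replicate 1, so that its place relative to Psmd2 and Psmd4 changed between the animals, while Psmd2 was above Psmd4 in both.

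All 7 assembly chaperones lay below all 31 constitutive subunits in mean TPM. The lowest constitutive subunit, Psma2, stood at 18.3 TPM and the highest chaperone, Psmg2, at 7.32 TPM. The exception, when coding transcripts of the second transcript table were counted alone, was Psma3 with 8.36 TPM against 10.98 TPM for Psmg2. On that scale Psmg4 also stood above Psma3, with 7.95 against 7.83 TPM in replicate 2 and 11.7 against 8.89 in replicate 1. The chaperones of the 19S base, which bind the ATPases before the particle closes, had a median of 4.06 ± 0.410 TPM (SD, n = 2), led by Psmd9 with 5.28 TPM in replicate 2 and 5.59 in replicate 1. Psmd10, which encodes gankyrin, was the lowest of them in the mean, with 3.77 TPM in replicate 2 and 3.51 in replicate 1, but Psmd5 was lower in replicate 2 at 3.58 TPM and higher in replicate 1 at 4.35 TPM. The chaperones of the 20S core, which act in pairs on the alpha ring, had a median of 4.81 ± 0.449 TPM (SD, n = 2). Their highest was Psmg2 with 7.80 TPM in replicate 2 and 6.83 in replicate 1, and their lowest Psmg3 with 2.71 TPM in replicate 2 and 3.17 in replicate 1. These ranks are those of the gene tables. By the second transcript table Psmd5 had 9.07 TPM against 9.06 for Psmd9 in replicate 1, and Psmg4 had 11.7 against 10.9 for Psmg2. In replicate 2 Psmd9 and Psmg2 stayed the highest there.

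The activators differed widely from each other. Psme4 encodes PA200, a nuclear activator known for histone breakdown in sperm development, and had 65.0 TPM in replicate 2 and 62.2 in replicate 1. With 12578 reads in replicate 2 and 12123 in replicate 1 it had the most reads of any member. Psme1 and Psme2 encode PA28 alpha and beta, which form an interferon-inducible ring. Psme1 had 28.2 TPM in replicate 2 and 21.2 in replicate 1, and Psme2 had 22.4 TPM in replicate 2 and 20.3 in replicate 1. Psme3, the nuclear PA28 gamma, had 21.9 TPM in replicate 2 and 23.1 in replicate 1. By the gene tables Psme2 and Psme3 thus did not differ beyond the spread between the animals. Psme1 stood above Psme2 in both animals but above Psme3 in replicate 2 only. The second transcript table placed Psme3 above Psme2 in both animals. The levels there were 39.5 against 24.8 TPM in replicate 2, and 46.2 against 24.4 TPM in replicate 1. By the first transcript table, protein-coding transcripts held 44.2% of Psme2 in replicate 2 and 63.98% in replicate 1. For Psme3 they held 91.2% and 87.2%. Psme2b had 0.18 TPM in replicate 2 and 0.44 in replicate 1, on 4.25 and 10.2 estimated reads. It shares 384 windows of 100 bases with Psme2, which is 52.0% of the windows in its own transcripts and 18.4% of those of Psme2, so that its level is uncertain. The PI31 gene Psmf1 had 6.89 TPM in replicate 2 and 6.63 in replicate 1, and Psmc3ip had 0.87 TPM in replicate 2 and 0.38 in replicate 1.

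Proteasome genes that carry other symbols were measured beside the members. Of 13 symbols listed, 11 were matched, and all 11 had at least 1 TPM in both animals. The symbols Paaf1 and AI314180 were not found, so no level is given for them. Ecpas, an adaptor that binds both the core and the 19S particle, was highest with 123 TPM in replicate 2 and 115 in replicate 1. Fbxo7, which binds PI31, was lowest with 3.20 TPM in replicate 2 and 2.86 in replicate 1. Pomp, which helps assemble the beta ring, had 53.1 TPM in replicate 2 and 62.3 in replicate 1, and thus stood with the subunits and not with the other chaperones. Uchl5, a proteasome-bound deubiquitinase, had the largest ratio between the animals, with 10.2 TPM in replicate 2 and 8.56 in replicate 1.

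The 6 genes of the NRF1 and NRF2 axis, in which NRF1 raises proteasome genes when the protease is inhibited, were all above 10 TPM. Nfe2l1, the gene for NRF1, was highest with 152 TPM in replicate 2 and 137 in replicate 1. Nfe2l2, the gene for NRF2, was lowest with 13.5 TPM in replicate 2 and 16.0 in replicate 1, and had the largest ratio. Among 11 ubiquitin genes and shuttle factors, the ubiquitin-activating enzyme Uba6 was lowest with 1.56 TPM in replicate 2 and 1.80 in replicate 1. Ubqln4, a shuttle factor, had the largest ratio, with 31.4 TPM in replicate 2 and 25.1 in replicate 1. Every gene of these lists had a mean expected count of at least 50. None of the 11 genes with other symbols, the 6 of the NRF1 and NRF2 axis or the 11 ubiquitin genes and shuttle factors differed by 2-fold with intervals apart.

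Members varied little between the animals. Ratios are replicate 2 over replicate 1 as log2(TPM + 0.1), for the 44 members and 11632 genes with a mean expected count of at least 50. The 6 members below that count were Psma8, Psmb11, Psmb8, Psmb9, Psmc3ip and Psme2b. The median absolute log2 ratio was 0.08 over members and 0.18 over all genes. Of the 44 members 43 lay within 1.25-fold, as did 72.5% of all genes. None passed the criteria of a 2-fold difference with credibility intervals that do not overlap, which 2.21% of all genes passed. Intervals did not overlap for 3 of 44 members, and for 18.9% of all genes. Among genes with a mean count of at least 1000, a filter chosen after the data were seen, all 30 members lay within 1.25-fold, as did 83.3% of 3123 genes, and 2 had intervals apart, against 37.2% of those genes.

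The 3 members with intervals apart were Psme1, Psmd7 and Psmd8. Psme1, PA28 alpha, had the largest ratio of the 44, a log2 difference of 0.41, with 776 reads in replicate 2 and 584 in replicate 1. Psmd7 was higher in replicate 2 by a log2 difference of 0.16, with 2362 reads in replicate 2 and 2096 in replicate 1, and Psmd8 was lower with a log2 difference of -0.16 and 2802 reads in replicate 2 against 3099 in replicate 1. With a mean of at least 1 TPM, the largest ratios were those of Psmb8 at 0.50, on 45 and 31 reads and with overlapping intervals, of Psme1, and of Psmg2 at 0.19. The smallest were -0.27 for Psmd5, -0.22 for Psmg3 and -0.19 for Psmg4. Psmd5 had more reads in replicate 2, 305 against 270, and its lower TPM went with a different split between transcripts. Its short coding transcript Psmd5-202 took 38.5% of the gene in replicate 2 and 59.2% in replicate 1.

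**Figure D3:**
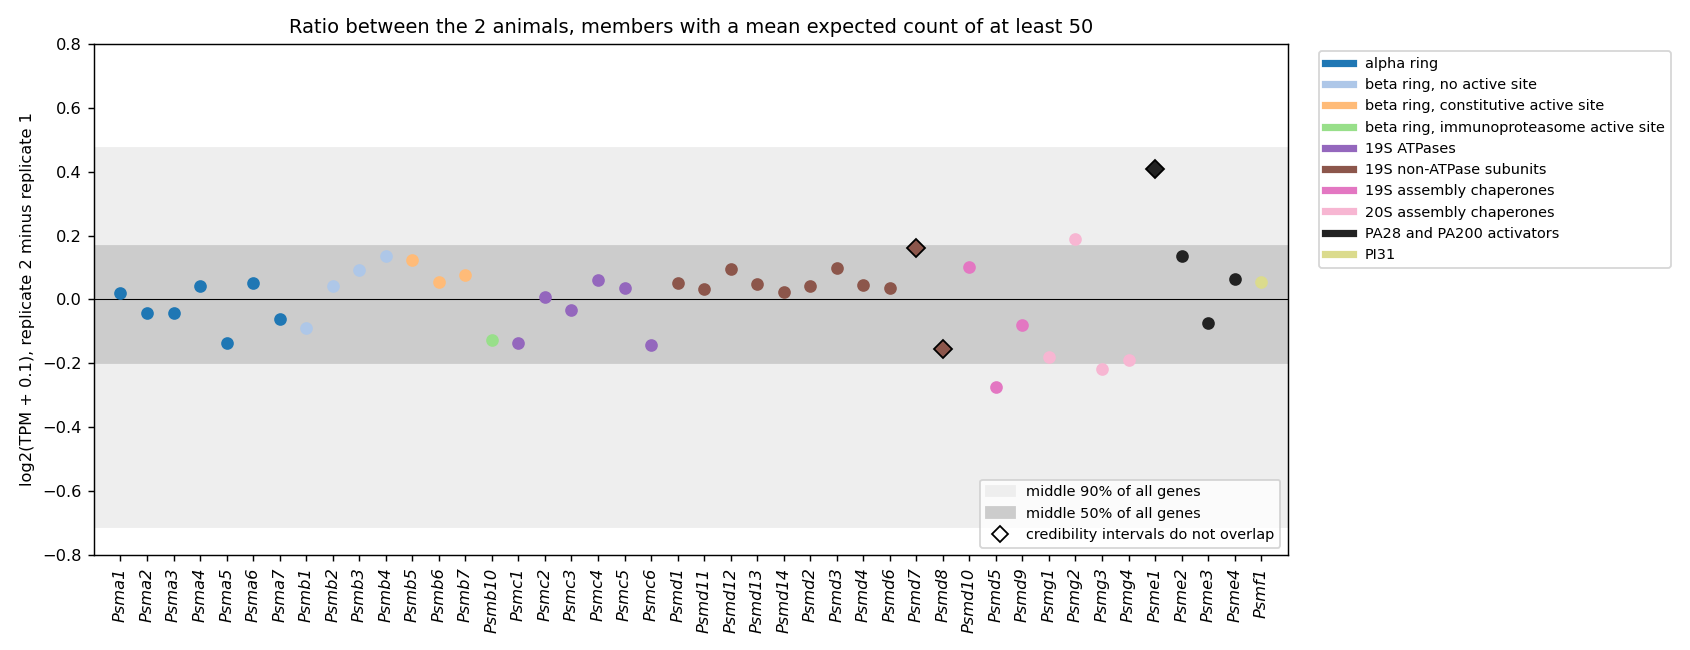
Difference of log2(TPM + 0.1), replicate 2 minus replicate 1, for the 44 members with a mean expected count of at least 50, coloured by class; the dark and light bands hold the middle 50% and 90% of 11632 genes, and diamonds mark the 3 members whose credibility intervals do not overlap. Psme1 at 0.41 is the farthest from 0, and the members lie between -0.27 and 0.41.

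The sign of these small ratios depended on the scale. Of the 44 members, 28 were higher in replicate 2 by TPM, where 50.5% of all genes were higher, but 9 were higher by the second transcript table, 11 by TPM rescaled over nuclear protein-coding genes and 15 by reads scaled to the library total, without length. The shares of all genes higher in replicate 2 fell as well, to 33.3%, 39.6% and 38.9% on these 3 scales, against 20.5%, 25% and 34.1% of members. The median ratio of members was 0.04 by TPM, -0.10 by the second table, -0.030 after rescaling and -0.023 by scaled reads. The median of all genes moved as well, to -0.11, -0.06 and -0.06 on those 3 scales. On all 4 scales 7 members were higher in replicate 2, namely Psmb3, Psmb5, Psmd3, Psmd7, Psmd10, Psmg2 and Psme1. On all 4 scales 14 were lower, among them Psma2, Psma3, Psma5, Psma7, Psmb10, Psmd8 and the core chaperones Psmg1, Psmg3 and Psmg4. For the other 23 the sign changed with the scale.

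The libraries differed in tissue markers while the members stayed close. The 6 Schwann cell markers summed to 103 TPM in replicate 2 and 452 in replicate 1, with 5 of 6 past the 2-fold criteria and lower in replicate 2. The 6 fibroblast markers summed to 901 TPM in replicate 2 and 1737 in replicate 1, with 2 of 6 past. Endothelial markers summed to 67.4 and 55.4 TPM, adipocyte markers to 127 and 105 TPM, and skeletal muscle markers to 88527 and 83745 TPM, in replicate 2 and replicate 1, with none past. All 5 skeletal muscle markers were high, with Acta1 at 25019 TPM in replicate 2 and 22669 in replicate 1, as the tissue label says. The part of these shifts in the members' ratios was not tested. Counts of the libraries differed by more than sampling noise, with a chi-square per degree of freedom of 35.1 over 14978 genes and 2.69 over the 46 members with a mean count of at least 10.

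Levels were compared with the second transcript table, which was made from the reads without the same alignments. Summed per gene, it gave higher TPM to most genes. Its ratio to the gene table was 1.46 in replicate 2 and 1.60 in replicate 1 for the median of 44 members, and 1.40 and 1.52 for that of detected genes. The order of members was similar, with a Spearman rho of 0.955 in replicate 2 and 0.966 in replicate 1 across the 44 genes, which share their libraries. Taken relative to detected genes, Psma2 and Psmc6 lay more than 1.5-fold off in both animals. Psma2 had 15.4 TPM in the second table against 18.0 in the gene table in replicate 2, and 17.8 against 18.6 in replicate 1. Psmc6 had 90.3 against 35.4 TPM in replicate 2, and 103 against 39.1 in replicate 1. The second table thus placed this ATPase, the lowest in the mean of the gene tables, above 3 other ATPases in replicate 2 and above 4 in replicate 1.

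**Figure D4:**
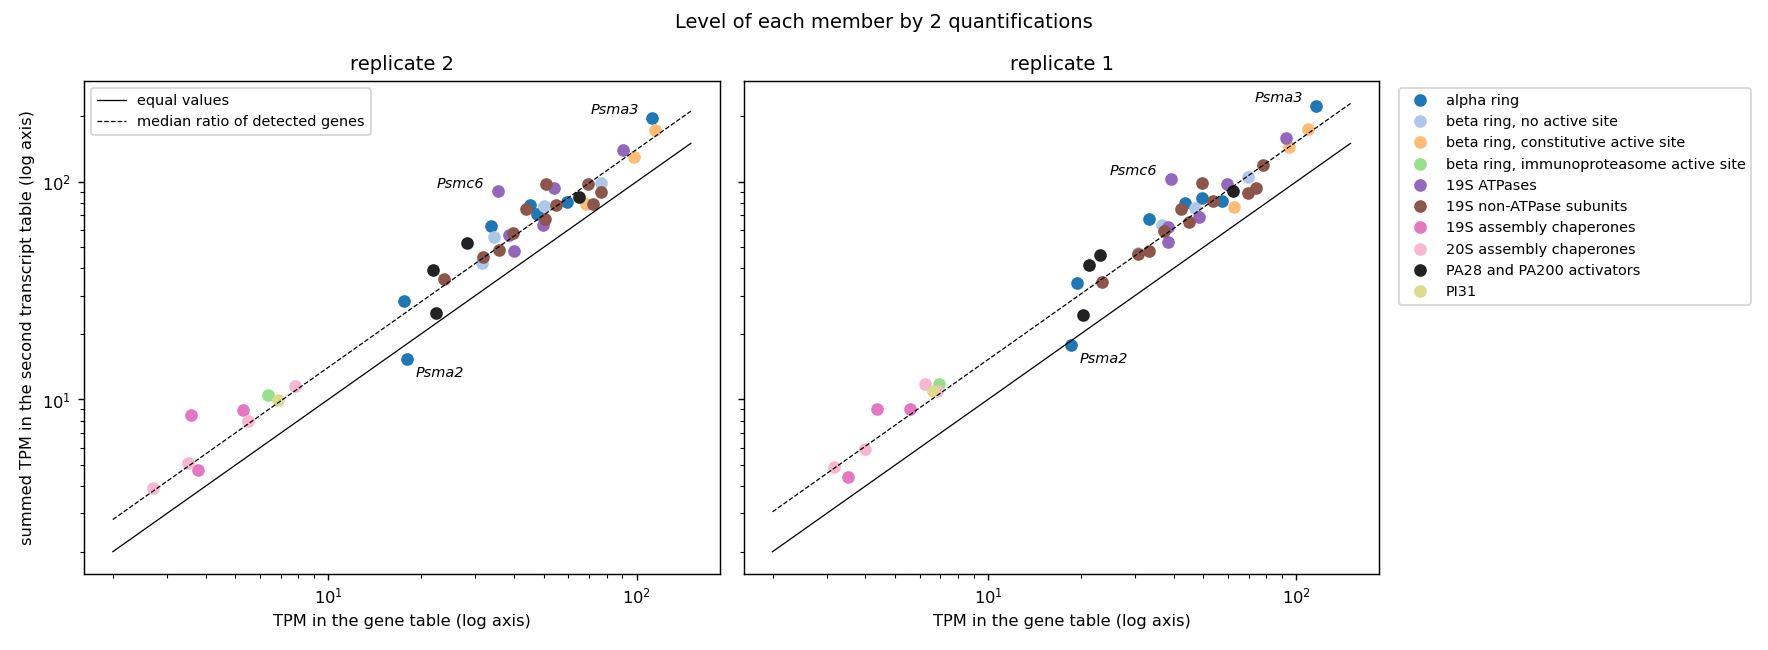
Summed TPM of the second transcript table (vertical log axis) against TPM of the gene table (horizontal log axis) for 44 members, with replicate 2 left and replicate 1 right, coloured by class. Most points follow the dashed line of the median ratio of detected genes, 1.40 and 1.52; Psma2 lies below it and Psmc6 above it in both animals.

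Sequence shared with other genes was limited. Of the 50 members 36 shared no window of 100 bases, the read length, with transcripts of another gene. In 5 members over 10% of windows were shared. These were Psme2 and Psme2b, Psma5 with 23.7% shared with Gm12989 and Gm8394, Psmb5 with 22.2% shared mainly with Gm3375, and Psma3 with 13.4% shared with Gm13835. The levels of these 5 are uncertain where shared reads had to be divided. Psma2 overlaps AW209491 on the same strand, which had 4.19 TPM in replicate 2 and 3.99 in replicate 1. Psme1 overlaps Emc9 on the other strand, which had 11.98 and 11.41 TPM. Other members overlap annotated genes as well. Psmd13 overlaps Gm15542 on the same strand, with 2.70 TPM in replicate 2 and 3.22 in replicate 1. On the other strand Psmd13 overlaps Sirt3, with 10.5 and 8.04 TPM, and Psmc3 overlaps Slc39a13, with 8.78 and 8.64 TPM. The libraries were stranded, but whether strand was used in counting is not stated, so reads in such overlaps could not be told apart with certainty.

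The 50 members have 278 annotated transcripts, 111 of them protein-coding. For the 44 members of at least 1 TPM, the median share of a gene's TPM in protein-coding transcripts was 97.0% in replicate 2 and 97.2% in replicate 1 by the first transcript table, and 90.9% and 93.3% by the second. Their leading transcript carried a median of 89.1% and 88.3% by the first table and 70.7% and 77.6% by the second. In 31 of 44 members the same transcript led in both animals and both tables, and 21 had at least 90% in coding transcripts throughout. Psma5, Psmb7, Psmc2, Psmd7 and Psme4 were of this kind, with Psmb7-201 at 99.9% in replicate 2 and 99.7% in replicate 1 by the first table.

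Other members split between forms. Psmd13, a lid subunit, had 45.1% in replicate 2 and 38.0% in replicate 1 on Psmd13-211, a transcript annotated for nonsense-mediated decay, which destroys messages with an early stop. The second table gave that transcript 56.7% and 50.6%. Psmb4 had 55.1% in replicate 2 and 64.2% in replicate 1 on its coding transcript by the first table, and 56.9% and 57.2% by the second, the rest lying on retained-intron forms. Coding transcripts of Psmd13 held 53.8% in replicate 2 and 58.5% in replicate 1 by the first table, and 42.1% and 46.6% by the second. The transcripts were not the same between the tables. The main coding form of Psmd13 was Psmd13-208 in the first table and Psmd13-201 in the second. The retained-intron share of Psmb4 lay mainly on Psmb4-202 and Psmb4-203 in the first and on Psmb4-204 in the second.

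For a few members the tables did not agree on which transcript was present. The first table placed Psma3 mainly on the coding Psma3-204, with 41.3% in replicate 2 and 41.4% in replicate 1. The second placed 48.7% and 48.8% on Psma3-201 and 39.3% in each animal on Psma3-207, both annotated for nonsense-mediated decay. By coding transcripts alone Psma3 averaged 78.1 TPM in the first table, the highest of the alpha ring, and 8.36 TPM in the second, the lowest of all constitutive subunits. Psmc6 had 62.5% and 54.6% on its coding transcript by the first table and 22.8% and 19.95% by the second, so that its coding level averaged 21.8 TPM in the first and 20.6 TPM in the second. The high gene total of Psmc6 in the second table thus lay on noncoding forms. For Psmd2 the second table placed 49.5% in replicate 2 and 37.2% in replicate 1 on Psmd2-206, annotated for nonsense-mediated decay. The first table had 98.6% and 98.7% of Psmd2 on coding transcripts. Psmb1 and Psmd8 switched between coding transcripts: Psmb1-201 led with 85.6% and 75.8% in the first table and Psmb1-204 with 96.3% and 98.0% in the second, while Psmd8-202 had 96.2% and 94.9% in the first and 10.9% and 15.5% in the second.

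**Figure D5:**
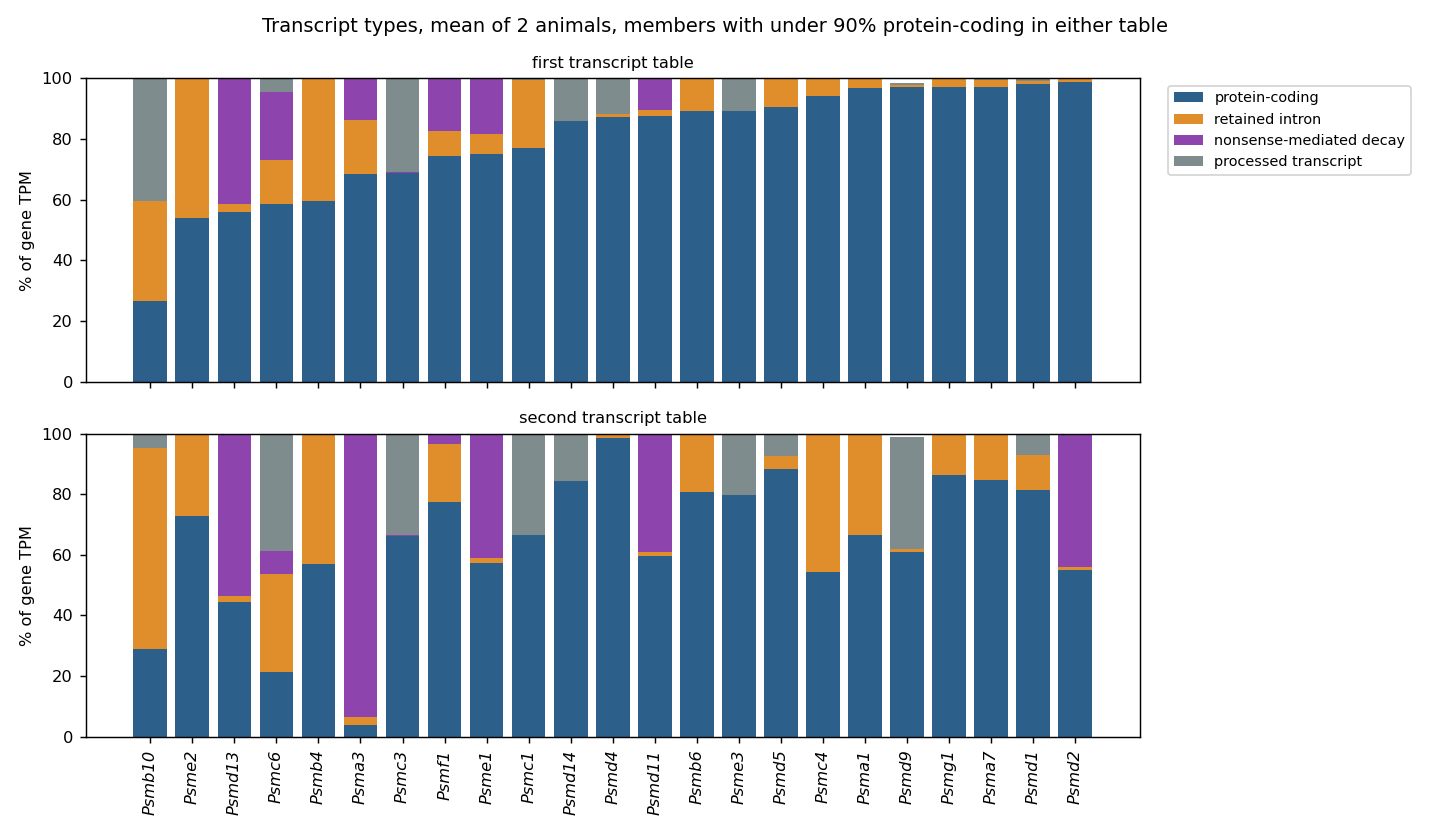
Percent of each gene's TPM by annotated transcript type (stacked bars, mean of 2 animals) for the 23 members with under 90% in protein-coding transcripts in either table, with the first transcript table above and the second below. Psmb10 is below 35% protein-coding in both tables, Psma3 is mostly protein-coding in the first and mostly nonsense-mediated decay in the second, and the gap above Psmd9 is of types not drawn.

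The members lie on 16 chromosomes (mm10), with 10 genes on chromosome 11 and 6 each on chromosomes 2 and 14. Members within 100000 bases of each other formed 3 pairs. Psmb9 (chr17:34181987-34187764) and Psmb8 (chr17:34197721-34201454) lie 9956 bases apart in the major histocompatibility region and were both low, and the peptide transporter gene Tap1, which overlaps Psmb9 on the other strand, had 0.66 TPM in replicate 2 and 0.45 in replicate 1. Psme1 (chr14:55578123-55581529) and Psme2 (chr14:55587441-55591113) lie 5911 bases apart. By the gene tables Psme1 had 28.2 TPM in replicate 2 and 21.2 in replicate 1, and Psme2 had 22.4 and 20.3 TPM, whereas the second transcript table gave Psme1 52.4 and 41.3 TPM and Psme2 24.8 and 24.4 TPM. Psmb5 (chr14:54614119-54618022) and Psmb11 (chr14:54621433-54629556) lie 3410 bases apart on opposite strands, with Psmb5 among the higher members and Psmb11 without a read in the gene tables.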

How the data were processed

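Members and gene lists were chosen with earlier results of these data known. Per the file headers and deposited notes, the gene table and first transcript table of each library came from transcriptome alignments, and the second transcript table from the reads and an index, all on mm10 with GENCODE M21. Aligners, quantifiers and versions were not given in sources used here. Each library's deposited tables from the authors hold expected counts, TPM, FPKM and, in the first transcript table, the percent of each gene's TPM per transcript, which was recomputed and differed by at most 0.137. The deposited credibility bounds of TPM, a signal never below 0, have no stated level. Nothing was pooled.

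Here TPM were averaged over the 2 animals, summed by gene for the second table, and compared as log2(TPM + 0.1) at a mean expected count of at least 50. Read depth was 38754338 in replicate 2 and 36952277 in replicate 1. Nothing says how the animals were handled, so the spread may be partly technical. Intervals and the floor of 3 reads for a count of 0 cover counting error only. Named are the highest and lowest member of each class by mean TPM, the active site and PA28 genes, the 3 largest and 3 smallest ratios at a mean of at least 1 TPM, and the highest, lowest and most different gene of each pathway list, of which 1 is not reported here; marker lists are given by their sums, and members named beyond this were chosen after their values were seen. Identity between member proteins was not analysed here. Ratio criteria were tested on simulated data. The motifs GAAANNGAA and TTCNNNGAA, the minimum count of 1000, reads scaled to the library total and levels over protein-coding transcripts alone were added after the data were seen. Software was Python 3.11.15, pandas 2.3.3, numpy 2.4.6, scipy 1.17.1 and matplotlib 3.10.9.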

Additional observations from a re-analysis of the deposited data

How the results depend on the processing

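The ratio of the 19S to the 20S median, over members only, was 0.959 by the second transcript table and 0.967 by the deposited posterior mean TPM. Over protein-coding transcripts alone it was 0.945 by the first and 0.965 by the second transcript table. These values lay within its spread. Leaving out an animal gave 0.932 and 1.01, but with 2 animals such values always lie within the SD. Rescaling TPM over nuclear protein-coding genes cannot change a ratio within a library. Leaving out an animal moved the share of Psmb9 between 0.127% and 0.426%, of Psmb10 between 5.24% and 5.99% and of Psmb8 between 1.53% and 2.04%. With the deposited posterior mean TPM, which is above 0 even without reads, the Psmb9 share was 0.654% and the Psmb8 share 2.24%. Over protein-coding transcripts alone, an alternative chosen after the data were seen, the Psmb10 share was 1.54% by the first and 1.81% by the second transcript table, and the Psmb8 share 0.772% by the first. The median log2 ratio of members, 0.04 by TPM, changed sign to -0.10 with the second table, -0.030 with TPM over nuclear protein-coding genes and -0.023 by reads scaled to the library total, and 9, 11 and 15 members, against 28, were then higher in replicate 2. All genes moved with them, with medians of -0.11, -0.06 and -0.06 and 3874, 4612 and 4522 of 11632 genes higher, against 5872 by TPM. The leading transcript's median share was 74.1% and the protein-coding share 92.1% by the second table. Of the values that answer a comparison, 43 kept their direction and size, 10 moved and 3 reversed. Of class medians, class sums and motif shares, 90 stayed within the spread or counting interval and 93 moved. The 43 and the 90 include the runs without 1 animal, whose outcome was fixed in advance. The 43 also include ratios and shares that rescaling within a library cannot change. The 93 include class levels in FPKM, in rescaled TPM and in the second table, where the unit or the general scale differs. These counts are therefore no measure of robustness. Intervals apart were not recounted for the second table, the rescaled values and scaled reads, which have no deposited intervals. No paired analysis was possible because the series holds 1 group. Depth limits the genes under 50 reads, Psmb8 and Psmb9 among them.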
